A study of Homo sapiens with 6 samples.

Results

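Docosahexaenoic acid (DHA), a long omega-3 polyunsaturated fatty acid, was given to mammary epithelial cells that had been treated with TGF-β, and the transcripts of these cells were set against those of cells given TGF-β alone. The comparison rests on 2 of the 6 arrays of the series, the array labelled TGFb+DHA and the array labelled TGFb, with 1 array per condition. All 6 arrays were made from HMLE cells, a line of human mammary epithelial cells immortalized with telomerase and a viral large T antigen, which can take on mesenchymal features when treated with TGF-β or when the transcription factor Snail is expressed. The other arrays were labelled Vector, DHA, Snail and Snail+DHA, and the study asked with this set whether DHA, which enters membrane phospholipids, alters the gene expression of cells that have undergone an epithelial-mesenchymal transition (EMT). The labels give 20 μM DHA on the 3 arrays with DHA and 0 on the others, and 1 ng/mL TGF-β on the TGFb and TGFb+DHA arrays and 0 on the others. The study's culture methods give another TGF-β concentration, and the label for the EMT inducer reads none on both TGFb arrays, so these groups rest on the titles and the dose label. Snail was expressed ectopically on the Snail and Snail+DHA arrays, and how long DHA was present before RNA was taken is not known from the labels or the methods. The cells are a line and not a tissue, with no fibroblasts or blood cells around them, and the large T antigen binds the RB and p53 proteins in every group.

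Every value below is a log2 value as the authors deposited it, after quantile normalization between arrays, and every difference is TGFb+DHA minus TGFb on that scale, so that 1 stands for 2-fold. A gene was read through its probe of highest mean over the 6 arrays and counted as measured where that probe was above background on the TGFb or the TGFb+DHA array. Of 20046 genes with a probe, 12121 were measured, 10322 of them on both arrays, 1286 on the TGFb array only and 513 on the TGFb+DHA array only. With a single array per condition no gene has a replicate check, no p-value can be given, and precision is limited by how few arrays there are. All 6 arrays lay on 1 BeadChip, where the position of an array and its condition cannot be told apart. In these bulk RNA samples, fewer cells of a type and less RNA per cell cannot be told apart either.

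The probes above background made up 37.5% to 44.3% of each array, 43.3% on TGFb and 39.8% on TGFb+DHA. The cells carried the markers of their labelled type. All 9 epithelial markers looked at, among them CDH1 (E-cadherin) and EPCAM, were above background on the TGFb array and 8 on the TGFb+DHA array, where CLDN4 was not, and their summed linear signal was 10531 and 7724 on these arrays. The basal keratins KRT5 and KRT14, the basal markers with a probe here, were both above background on every array. Of 6 endothelial markers none was above background on either array. Of 6 leukocyte markers with a probe, MS4A1, CD14 and CSF1R were above background on the TGFb array and CD14 and CSF1R on the TGFb+DHA array, with a summed linear signal of 778 and 548, and the others were not. The part of these cell type markers in the differences below was not tested.

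DHA is a ligand of peroxisome proliferator-activated receptors (PPARs), nuclear receptors that pair with RXR and switch on genes of fatty acid transport, storage and oxidation. Polyunsaturated fatty acids are also known to restrain the processing of SREBP, which drives genes of cholesterol and fatty acid synthesis. TGF-β is known for inducing extracellular matrix, basement membrane and EMT genes in epithelial cells and for holding back their cell cycle. Notch receptors are cleaved after they meet a ligand on a neighboring cell and then act in the nucleus with RBPJ on HES and HEY genes. Interferons induce antiviral genes, whose promoters can hold a short DNA element that IRF9-containing complexes bind. E2F factors bind the promoters of genes of DNA replication, and large T antigen is known to free them from RB.

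The interferon genes and the genes of DNA replication stood on opposite sides of 0 in this comparison, and both groups are known for such short promoter elements. The stretches that carry the elements are shown here for genes that the results below return to. The stretches come from RefSeq's GRCh38.p14 start sites, each read 5′ to 3′ on the strand of its gene and upstream of the start site, with the motif matches in capitals. The interferon-stimulated response element was searched as a pair of GAAA blocks with any 2 bases between them, on both strands and with overlapping matches included, in the 250 bases upstream of each start site. The stretches lie at chr1:1013359-1013424 (ISG15), chr10:89392482-89392554 (IFIT1), chr10:89327829-89327896 (IFIT3), chr14:94110603-94110675 (IFI27) and chr11:313970-314039 (IFITM1), all on the plus strand.
ISG15: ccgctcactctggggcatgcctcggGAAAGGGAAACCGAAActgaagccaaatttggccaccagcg
IFIT1: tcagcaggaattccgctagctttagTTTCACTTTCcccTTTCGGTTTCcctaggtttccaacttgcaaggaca
IFIT3: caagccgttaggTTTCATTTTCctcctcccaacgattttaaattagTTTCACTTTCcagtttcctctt
IFI27: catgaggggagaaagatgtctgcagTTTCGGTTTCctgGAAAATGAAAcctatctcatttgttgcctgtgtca
IFITM1: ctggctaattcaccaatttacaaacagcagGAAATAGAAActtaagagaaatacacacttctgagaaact

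The E2F motif was searched as TTTCCCGC and TTTGGCGC on both strands in the same windows, and the stretches of 3 genes of DNA replication lie at chr16:85688955-85689015 (GINS2), chr2:135876514-135876607 (MCM6) and chr20:5126644-5126711 (PCNA), all on the minus strand.
GINS2: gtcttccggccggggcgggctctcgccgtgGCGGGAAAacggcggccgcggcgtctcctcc
MCM6: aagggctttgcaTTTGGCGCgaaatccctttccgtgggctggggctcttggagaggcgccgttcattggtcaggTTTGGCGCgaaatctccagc
PCNA: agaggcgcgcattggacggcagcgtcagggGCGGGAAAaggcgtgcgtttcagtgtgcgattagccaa

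The response element was found upstream of 30 of the 55 measured interferon genes that had a window in the table (54.5%), against 3.71% of all 27305 genes with a window and 3.30% of the measured genes. The E2F motif was found upstream of 14 of 60 measured genes of replication and mitosis (23.3%), against 2.36% of all genes with a window and 3.91% of the measured genes. A match is a run of letters and not a shown binding site. The RBPJ motif GTGGGAA was found upstream of 3 of 35 Notch pathway genes, against 6.69% of all genes, and the FOXO motif GTAAACA upstream of none of 31 genes of the PI3K, AKT and FOXO list, against 3.66% of all genes. A sterol element motif, TCACNCCAC, was found upstream of 1 of 25 genes of cholesterol synthesis and uptake, against 1.09% of all genes. The median GC content of the window was 62.9% over the genes at least 2-fold higher, 64.8% over those at least 2-fold lower and 64.0% over all measured genes.

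Over all measured genes, 247 (2.04%) were higher by 2-fold or more and 437 (3.61%) lower by 2-fold or more on the TGFb+DHA array, 684 or 5.64% in either direction. The median difference was -0.04, the SD over genes 0.50, and the range from the 5th to the 95th percentile -0.89 to 0.73. When all arrays were brought to 1 median and not quantile normalized, called common-median scaling below, the median over all genes moved to -0.17 and the split to 126 higher (1.04%) and 804 lower (6.63%), so a direction close to 0 in the lists below depends on the scaling. With DHA in Snail cells, 150 genes (1.29%) passed 2-fold upward and 278 (2.39%) downward, and with DHA in Vector cells 37 (0.302%) and 161 (1.31%). The 3 pairs share no array, and no test of the difference between them is possible with 1 array each. Of the 247 genes higher in TGF-β cells, 53 were also at least 2-fold higher in the Snail pair and 2 in the Vector pair, and of the 437 lower, 93 and 20 were at least 2-fold lower there. Of the higher genes, 218 had the same sign in the Snail pair and 141 in the Vector pair, and of the lower genes 381 and 250. The median difference of the higher genes was 0.69 in the Snail pair and 0.10 in the Vector pair. For the lower genes it was -0.55 and -0.06, and over all measured genes -0.02 and -0.01. The share of all measured genes with the same sign in different pairs was not counted.

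The 10 largest positive differences over all genes held a pair of lipid genes, ANGPTL4 at 2.32 and FABP5 at 2.12, and a pair of antimicrobial genes of skin and mucosa, DEFB103A (a beta-defensin) at 2.25 and PI3 (elafin, a protease inhibitor) at 1.97. The others were SCG5 at 1.99, CACYBP at 1.97, RPS7 (a ribosomal protein) at 1.86, the replication gene MCM10 at 1.85, SFTA1P at 1.80 and STEAP1 at 1.78. The 10 largest negative differences were those of TSHZ2 (-3.24), the mucin MUC1 (-3.20), the chloride channel family member CLIC3 (-2.70), the glucocorticoid-induced TSC22D3 (-2.49), PAMR1 (-2.48), the desmosomal plakophilin PKP1 (-2.47), the laminin chain LAMB2 (-2.33), CLPSL2 (-2.30), TMT1A (-2.30) and ZNF185 (-2.26). PAMR1 was above background on the TGFb array only and at least 4.93-fold lower on TGFb+DHA. Probes of DEFB103A, RPS7, FABP5, FOXO3, KRT16, MT1G and IFITM1 can also read near-identical copies or close relatives of these genes, so the gene behind their signal is uncertain.

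**Figure D1:**
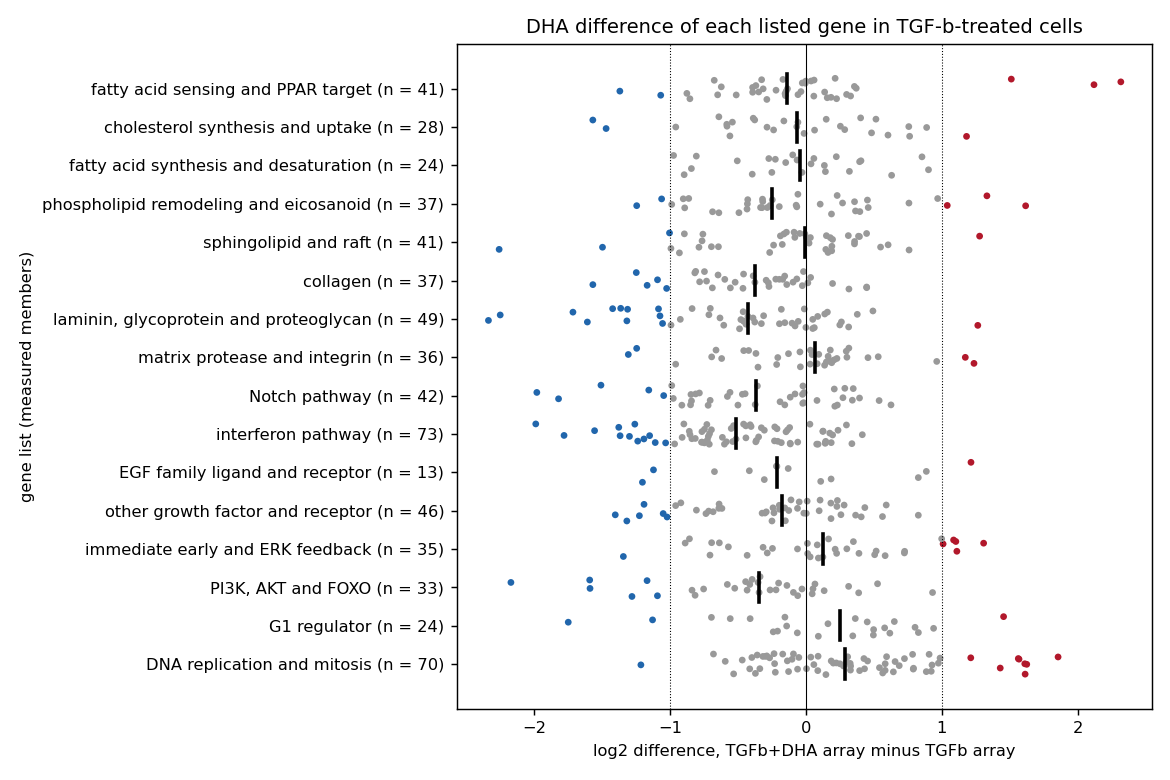
Each point is 1 measured gene of a list, placed by its log2 difference TGFb+DHA minus TGFb (x axis), with the lists on the y axis; black bars are list medians, dotted lines mark 2-fold, and red and blue points lie at or past them. The interferon list (median -0.51) and the laminin, glycoprotein and proteoglycan list (-0.43) sit to the left of 0, and the replication and mitosis list (0.29) to the right; vertical scatter within a list has no meaning.

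Most lipid lists held genes at 2-fold or more in both directions, and their medians lay between -0.25 and -0.01. The share at 2-fold or more was 12.2% for fatty acid sensing and PPAR targets and 10.7% for cholesterol synthesis and uptake. It was 13.5% for phospholipid and eicosanoid genes, 9.76% for sphingolipid and raft genes and 0 for fatty acid synthesis, beside 5.64% over all genes. Among 41 measured genes of fatty acid sensing and PPAR targets, 3 were at least 2-fold higher (ANGPTL4, FABP5 and MGLL) and 2 lower (RXRA and TXNIP), with a median of -0.14 beside -0.04 over all genes. ANGPTL4, a secreted inhibitor of lipoprotein lipase and a PPAR target, read 6.86 on TGFb and 9.17 on TGFb+DHA, 4.98-fold higher. On the other arrays it read 6.90 (Vector), 7.19 (DHA), 6.79 (Snail) and 11.39 (Snail+DHA), so that it was high on both arrays that combined DHA with an inducer of EMT and low on the other 4. Its 3 measured probes gave differences between 0.31 and 2.32. FABP5, which carries fatty acids to the nucleus, read 9.54 on TGFb and 11.66 on TGFb+DHA, and 10.62, 11.52, 8.94 and 10.88 on Vector, DHA, Snail and Snail+DHA. It was higher with DHA in all 3 pairs, by 2.12, 1.94 and 0.90 in TGF-β, Snail and Vector cells.

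MGLL, the lipase that releases the last fatty acid of a glyceride, read 6.67 on TGFb and 8.18 on TGFb+DHA, and its probes ran from 0.42 to 1.51. PPAR targets of fatty acid oxidation stayed close to 0 or below it. CPT1A, which lets fatty acids into mitochondria, read 6.58 and 6.74, and PDK4, which spares glucose, read 6.50 on TGFb and was not above background on TGFb+DHA. Both genes were dim, since the lowest values above background on TGFb and TGFb+DHA were 6.38 and 6.44. Of 20 measured genes in the oxidation class of the list none was at least 2-fold higher and 1 was lower. That gene was TXNIP, from 13.24 to 12.18, short of 2-fold under common-median scaling. TXNIP is a brake on glucose uptake and not an enzyme of fatty acid oxidation. The next lowest of the class was HADHB at -0.62. The receptor side was lower or level, since RXRA, the partner of PPARs, read 11.65 on TGFb and 10.28 on TGFb+DHA, and the 6 measured nuclear receptors of the list had a median of -0.23. In the Snail pair RXRA differed by -0.60 and in the Vector pair by 0.24.

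The list of cholesterol synthesis and uptake had a median of -0.06 (28 measured). That of fatty acid synthesis, desaturation and elongation had -0.05 (24 measured). The latter turned to 0.11 when arrays were scaled to the median of probes above background on all 6 arrays. Classes within these lists differed. The 17 enzymes of sterol synthesis had a median of 0.25, with 9 above 0 and 8 below. Genes of fatty acid synthesis itself had 0.40 over 7, with 5 above 0 and 2 below. HMGCS1, which makes the precursor of mevalonate, read 9.24 on TGFb and 10.42 on TGFb+DHA, against 10.41 on Vector and 10.10 on DHA, so the TGFb array was the low one of these 4. Its difference was 1.18 in TGF-β cells and -0.31 in both other pairs, and under common-median scaling it did not reach 2-fold. Lower were TM7SF2, a sterol reductase (8.44 to 6.98), and APOE, the apolipoprotein that carries cholesterol out of cells (9.69 to 8.12), and the 4 measured genes of efflux all had a difference below 0. The desaturases that make polyunsaturated fats stayed within 2-fold, FADS1 at 9.43 and 9.57 and FADS2 at 6.44 and 6.76, as did SCD, which makes monounsaturated fats, at 13.35 and 13.39. FADS2 on TGFb was close to the lowest value above background there, 6.38, so a decrease could hardly have been seen. None of the 24 measured genes of fatty acid synthesis, desaturation and elongation was at least 2-fold different.

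In phospholipid remodeling and eicosanoid synthesis, 3 of 37 measured genes were higher and 2 lower by 2-fold or more, with a median of -0.25. PTGS2, the inducible cyclooxygenase, read 6.81 on TGFb and 8.14 on TGFb+DHA and lay between 6.16 and 6.98 on the other 4 arrays, and PTGES2, a prostaglandin E synthase, read 9.52 and 10.55. LYPLA1, an acyl thioesterase, read 7.51 and 9.13. The lower members act on other eicosanoids, ALOX15B, a lipoxygenase, at 10.20 and 8.96 and CYP4F3, which inactivates leukotriene B, at 8.17 and 7.11. Each of these 5 genes had more than 1 measured probe, and the mean of its probes did not reach 2-fold.

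Sphingolipid and raft genes had a median of -0.01 over 41 measured members, with 1 gene higher and 3 genes lower by 2-fold or more. SPHK1, which makes sphingosine 1-phosphate, read 8.42 on TGFb and 9.70 on TGFb+DHA, while SGPP2, which removes that phosphate again, read 11.57 and 9.31. CERS6, a ceramide synthase, read 12.15 and 10.65, and the raft scaffold FLOT1 8.91 and 7.91. Caveolin, CAV1, the coat protein of caveolae, read 13.40 and 13.16 and between 13.02 and 13.35 on the other arrays. SGPP2 was lower with DHA in every pair, with differences of -2.25, -1.43 and -0.93 in TGF-β, Snail and Vector cells, and CERS6 differed by -0.88 in the Snail pair and 0.24 in the Vector pair.

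**Figure D2:**
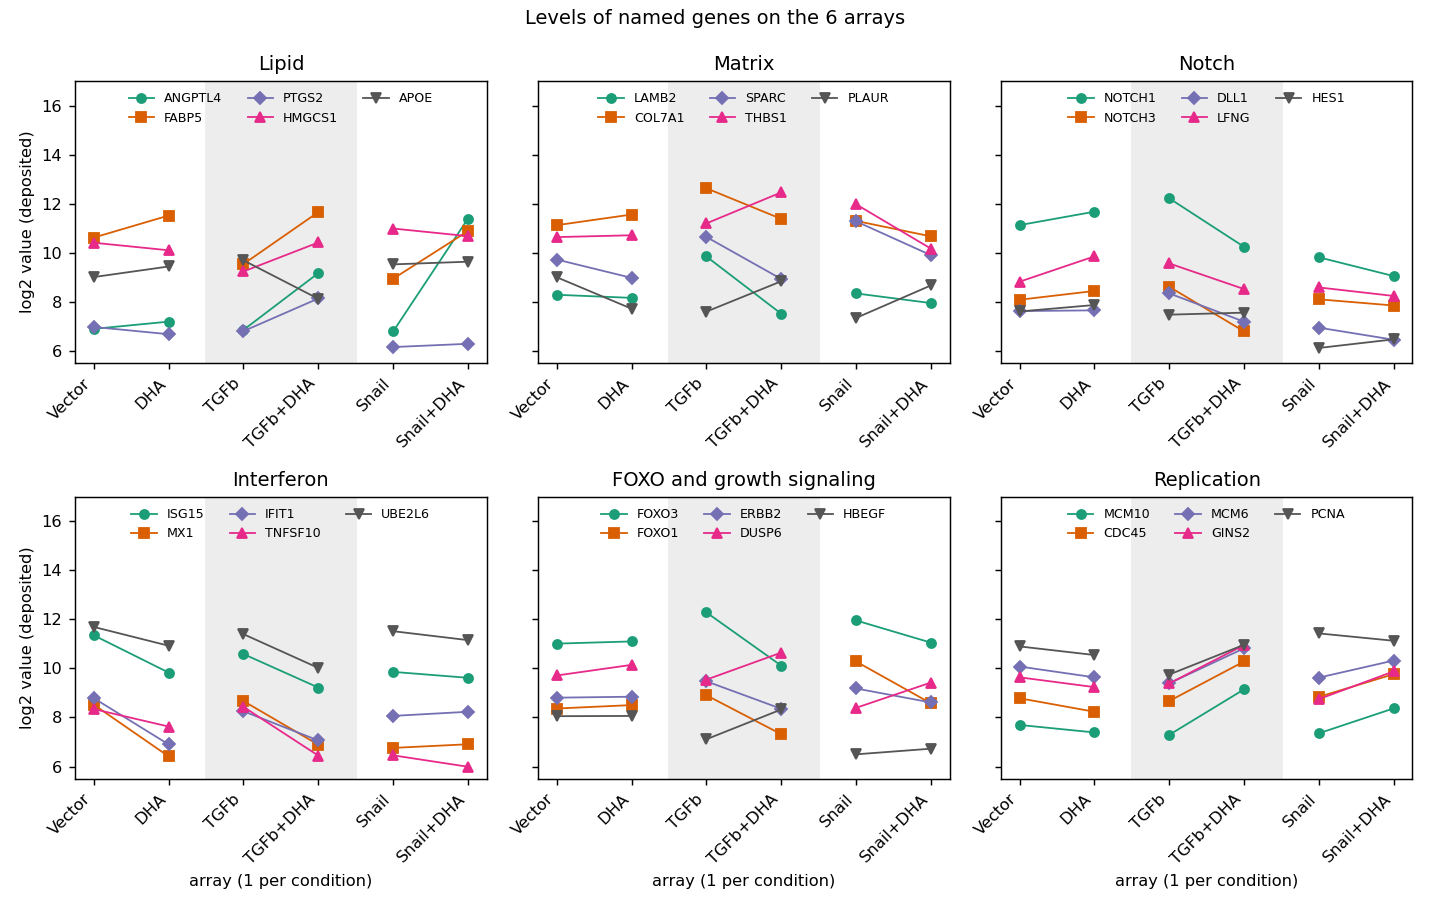
Deposited log2 value (y axis) of named genes on the 6 arrays (x axis, 1 array per condition), with a line joining each array without DHA to its partner with DHA and the TGF-β pair shaded. ANGPTL4 is high on TGFb+DHA and Snail+DHA only, NOTCH1 and FOXO3 slope down more steeply in the shaded pair than in the others, ISG15, MX1 and IFIT1 slope down in the Vector and TGF-β pairs, and the replication genes slope up in the shaded pair.

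Matrix genes were lower on the TGFb+DHA array in most of their classes. Of 49 measured laminins, glycoproteins and proteoglycans, 11 were at least 2-fold lower and 1 higher, with a median of -0.43, and 36 lay below 0. Under common-median scaling 14 were lower and 1 higher. Of 37 measured collagens and collagen enzymes, 5 were at least 2-fold lower and none higher, with a median of -0.37, and 31 lay below 0. In either direction, 24.5% and 13.5% of these lists were at 2-fold or more, beside 5.64% over all genes. Both medians stayed below 0 under all scalings tried.

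Basement membrane components led this group. LAMB2, a laminin beta chain, read 9.85 on TGFb and 7.52 on TGFb+DHA, 5.04-fold lower, and 8.29, 8.16, 8.34 and 7.95 on Vector, DHA, Snail and Snail+DHA, so the TGFb array was the highest of the 6 and TGFb+DHA the lowest. LAMA5, a laminin alpha chain, read 12.80 and 11.20, and LAMC1, a gamma chain, differed by -1.08. The chain LAMB3, which belongs to the laminin of hemidesmosomes, read 12.47 and 12.79, and its 2 measured probes differed in sign, at -0.18 and 0.31. The 5 measured collagens of basement membranes all lay below 0, with the type IV chains COL4A1 at 11.07 and 9.98, COL4A2 at 8.35 and 7.67 and COL4A5 at 10.54 and 9.37, whose probes ran from -1.17 to -0.37. COL7A1, which anchors the basement membrane to the stroma, read 11.12 on Vector, 11.56 on DHA, 12.63 on TGFb and 11.38 on TGFb+DHA.

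Among interstitial components, COL5A2, a fibrillar collagen, read 8.92 on TGFb and 7.35 on TGFb+DHA, and COL1A1 read 7.45 and 6.67. SPARC, which binds collagen, read 9.72, 8.98, 10.65, 8.93, 11.28 and 9.90 on Vector, DHA, TGFb, TGFb+DHA, Snail and Snail+DHA and was lower with DHA in all 3 pairs. CSPG4, a transmembrane proteoglycan, read 8.81 on TGFb and 6.56 on TGFb+DHA, 4.75-fold lower. BGN (biglycan) was above background on TGFb only and at least 2.16-fold lower with DHA, while in Vector cells it was 1.03 higher. P4HA2, a prolyl hydroxylase of collagen, read 11.08 and 10.06, but the probe of highest variance gave 0.049. FN1 (fibronectin), a usual marker of EMT, read 7.34 on TGFb and 7.60 on TGFb+DHA, and TGFBI, a secreted TGF-β target, 14.05 and 13.62.

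THBS1 (thrombospondin), which binds and can activate TGF-β, was higher instead, at 11.20 on TGFb and 12.46 on TGFb+DHA, while Snail+DHA differed from Snail by -1.81. Proteases and integrins had a median of 0.06 over 36 measured genes (-0.03 under common-median scaling), with 2 genes higher and 2 genes lower by 2-fold or more. That was 11.1% of the list, beside 5.64% over all genes. The higher members were PLAUR, the urokinase receptor, at 7.60 and 8.84, and ADAM19, a membrane protease, at 8.81 and 9.98, which did not reach 2-fold under common-median scaling. The lower members were MMP28, a matrix metalloproteinase of epithelia, at 10.57 and 9.27, and TIMP2, a metalloproteinase inhibitor, at 10.78 and 9.54. None of 17 measured integrins was 2-fold different, and ITGB4, the integrin of hemidesmosomes, read 11.54 and 10.92. PLAUR had 3 measured probes with differences between 0.54 and 1.24, TIMP2 2 with -1.24 and -0.13 and MMP28 3 with -1.31 to -0.34, and none of the 3 genes reached 2-fold with the mean of probes.

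In Snail cells the same lists read alike, with medians of -0.40 for collagens and -0.40 for laminins, glycoproteins and proteoglycans. At least 2-fold lower were 8 of 35 and 11 of 54 measured members (22.9% and 20.4%), beside 2.39% over all genes. In Vector cells the medians were 0.01 and 0.08, and no member was at least 2-fold lower. The difference between the Vector pair and the other pairs was not tested. Genes known as TGF-β targets and feedback had a median of -0.17, with 2 of 26 genes higher and 1 lower by 2-fold or more. Over all genes in the TGF-β pair, 2.04% were higher and 3.61% lower. The lower member, ID3, which TGF-β represses in many epithelial cells, read 10.76 and 9.59. SMAD7, the feedback inhibitor of the pathway, read 7.07 and 7.02, and VIM (vimentin) and CDH2 (N-cadherin), markers of the mesenchymal state, read 13.40 and 13.32 and 8.75 and 8.83.

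In the Notch pathway, receptors and most ligands lay below 0 and most targets above it. Of 42 measured genes 5 were at least 2-fold lower and none higher, with a median of -0.36 and 31 below 0. The 5 were 11.9% of the list, beside 3.61% lower over all genes. Under common-median scaling 12 were lower and none higher, with 6.63% lower over all genes. NOTCH1 read 11.13, 11.67, 12.22, 10.24, 9.82 and 9.05 on Vector, DHA, TGFb, TGFb+DHA, Snail and Snail+DHA. It was highest on the TGFb array and 3.94-fold lower on TGFb+DHA. NOTCH3 read 8.61 on TGFb and 6.80 on TGFb+DHA, 3.53-fold lower, and between 7.85 and 8.44 on the other 4 arrays. NOTCH2 stayed within 2-fold, at 7.62 and 7.26.

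Among ligands, DLL1 read 8.35 on TGFb and 7.19 on TGFb+DHA and JAG2 9.23 and 8.53, while JAG1 read 8.85 and 8.83. LFNG, the fringe glycosyltransferase that tunes which ligand a receptor answers, read 9.57 and 8.52, with a second probe near 0 (0.01), and all 5 measured glycosyltransferases of the pathway lay below 0. NEURL1B, a ubiquitin ligase of ligands, read 8.93 and 7.42. The targets did not share this direction, though none was at least 2-fold different and a direction close to 0 depends on the scaling. HES1 read 7.48 on TGFb and 7.56 on TGFb+DHA, HES4 7.73 and 7.94 and HEY1 6.41 and 6.76, and of 6 measured targets 5 lay above 0, with a median of 0.28. HEY1 on TGFb was close to the lowest value above background on that array, 6.38. The cleaving proteases of the pathway had a median of -0.24 over 8 genes with none at 2-fold.

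In the Snail pair the Notch list had a median of -0.26. There 2 of 37 measured members were at least 2-fold lower (5.41%, beside 2.39% over all genes), and NOTCH1 and NOTCH3 differed by -0.77 and -0.25. In the Vector pair the median was 0.04 with 2 of 42 members higher (4.76%, beside 0.302% over all genes), and the same receptors differed by 0.55 and 0.36. NOTCH1 thus lay lower with DHA in both induced states and higher in Vector cells, a difference that 1 array per condition does not allow to be tested.

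**Figure D3:**
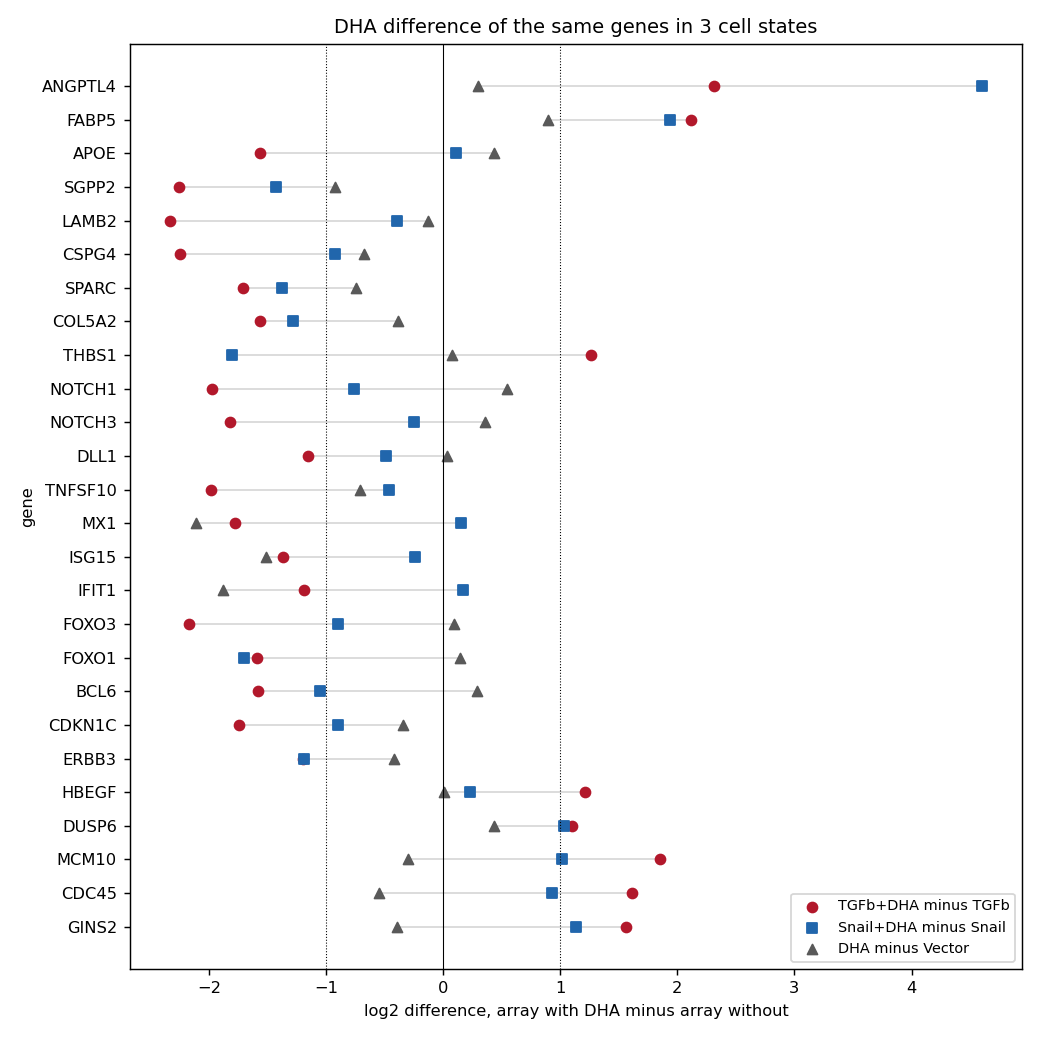
Log2 difference between the array with DHA and its partner without (x axis) for named genes (y axis) in TGF-β cells (red circles), Snail cells (blue squares) and Vector cells (gray triangles), with dotted lines at 2-fold and 1 array per condition. The receptor NOTCH1 reads -1.98 in TGF-β cells and 0.55 in Vector cells, MX1 reads -1.78 in TGF-β cells and 0.15 in Snail cells and is plotted at its measured -2.11 in Vector cells, where the DHA array was not above background, and MCM10 reads 1.85, 1.02 and -0.31 in TGF-β, Snail and Vector cells.

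Interferon genes formed the group with the lowest median among the lists of the 5 themes. Of 73 measured genes, 12 were at least 2-fold lower and none higher, 58 lay below 0, and the median was -0.51. The 12 were 16.4% of the list, beside 3.61% lower over all genes. Under common-median scaling 20 were at least 2-fold lower and none higher, with 6.63% lower over all genes. The antiviral effectors carried most of it, with 7 of 27 measured at least 2-fold lower and a median of -0.72. Sensors, with a median of -0.38 over 8 genes, and ligands and receptors, with -0.58 over 7, had no member at 2-fold.

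ISG15, a ubiquitin-like antiviral protein, read 11.35, 9.83, 10.58, 9.22, 9.86 and 9.62 on Vector, DHA, TGFb, TGFb+DHA, Snail and Snail+DHA. UBE2L6, the enzyme that conjugates ISG15, read 11.69, 10.92, 11.40, 10.02, 11.52 and 11.15. Both read lower with DHA in all 3 pairs, ISG15 by at least 2-fold in Vector and TGF-β cells and UBE2L6 in TGF-β cells. MX1, a GTPase that blocks viruses, read 8.67 on TGFb and 6.89 on TGFb+DHA, and 8.52 on Vector, at least 4.30-fold higher than on DHA, where it was not above background. On both Snail arrays it was already low, at 6.76 and 6.91.

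IFIT1 read 8.25 on TGFb and 7.06 on TGFb+DHA and IFIT3 7.60 and 6.49, members of a family that binds foreign RNA ends. Each has a second measured probe with a difference near 0 (-0.01 and -0.10), so the size depends on the probe. IFIT2, of the same family, read 7.89 and 7.08. IFITM1, which blocks the entry of viruses, was above background on TGFb only and at least 2.52-fold lower with DHA, and was at least 1.80-fold lower in the Snail pair, where Snail+DHA was not above background. In the Vector pair it differed by -1.84. TNFSF10 (TRAIL), an interferon-induced death ligand, read 8.43 and 6.45, 3.96-fold lower, and IFI27 7.65 and 6.51. IRF9, a DNA-binding factor of the interferon response, read 9.48 on TGFb and 8.22 on TGFb+DHA, whereas IRF7 read 7.98 and 7.53 and OAS1, which senses double-stranded RNA, 7.57 and 7.37.

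The genes with the response element shown above lay lower than the rest of the list, with a median of -0.73 over the 30 with a match and -0.40 over the 25 without. Of the 9 genes at least 2-fold lower that had a window, 7 held a match, among them ISG15, IFIT1, IFIT3, IFI27 and IFITM1. This is a description of the windows in the table, since genes of the list are not independent of each other. Many genes with a match were antiviral effectors, such as IFIT1 and MX1. That role had a median of -0.72, and signaling genes of -0.23, so match and role were not separated here.

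Setting the pairs side by side, the interferon list had a median of -0.63 in Vector cells with 24 of 75 members at least 2-fold lower. That was 32%, beside 1.31% over all genes, and more than in TGF-β cells. In Snail cells the median was -0.12 with 3 of 69 lower and 1 higher, beside 2.39% lower and 1.29% higher over all genes. The interferon list was thus furthest below 0 in Vector and TGF-β cells, whereas the collagen list, the list of laminins, glycoproteins and proteoglycans and the Notch list were below 0 in TGF-β and Snail cells. Differences between pairs were not tested.

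Growth genes divided by role. Receptors lay mostly below 0, with ERBB3 and ERBB2, receptors of the EGF family, at 8.93 and 7.72 and at 9.47 and 8.35 on TGFb and TGFb+DHA, and EGFR at 10.02 and 9.35. ERBB3 has a second probe at 0.05, and the 3 probes of EGFR ran from -0.67 to 0.39. FGFR3 read 12.29 and 10.88, DDR1, a collagen receptor kinase, 10.50 and 9.45, and PDGFRB, a receptor of mesenchymal cells, was above background on TGFb only and at least 1.63-fold lower. FGFR3 and DDR1 each have a second probe, at -0.03 and -0.23, and with the mean of probes ERBB3, FGFR3 and DDR1 did not reach 2-fold. Ligands were mixed, with HBEGF, which activates EGFR, at 7.11 and 8.33, TGFA at 8.19 and 9.02, EREG at 6.43 and 6.54 and WNT10A at least 2.25-fold lower with DHA. EREG was close to the lowest values above background on TGFb and TGFb+DHA, 6.38 and 6.44. IGFBP2, which binds insulin-like growth factors, read 9.18 and 7.99 and IGFBP3 7.09 and 6.45. Over 13 measured genes of the EGF family the median was -0.21, and over 46 of other growth factors and receptors -0.17, with 6 at least 2-fold lower and none higher. The 6 were 13.0% of that list, beside 3.61% lower over all genes.

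Genes of ERK feedback, which ERK signaling switches on, lay mostly above 0. Of 13 measured, 12 lay above 0 and 3 were at least 2-fold higher, with a median of 0.52. Over all genes 2.04% were at least 2-fold higher. DUSP6, the phosphatase of ERK, read 9.71, 10.14, 9.54, 10.64, 8.39 and 9.42 on Vector, DHA, TGFb, TGFb+DHA, Snail and Snail+DHA, higher with DHA in each pair. SPRY4 read 7.39 and 8.50 and SPRY1 6.42 and 7.43. The exception was DUSP1, a phosphatase that glucocorticoids and stress also induce, at 11.34 and 9.99. The immediate early genes had a median of -0.03 over 22 measured, with PHLDA1 (8.36 and 9.66) and IER3 (11.53 and 12.62) at least 2-fold higher. FOS read 10.01 and 9.58, EGR1 12.23 and 11.54 and MYC 11.89 and 11.98. Of these 5 higher genes, PHLDA1 alone reached 2-fold under common-median scaling, and IER3 alone with the mean of each gene's probes.

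Of 6 measured genes of the FOXO class, 3 were at least 2-fold lower and none higher. FOXO factors restrain growth and are held out of the nucleus by AKT. FOXO3 read 11.01, 11.10, 12.28, 10.11, 11.96 and 11.05 on Vector, DHA, TGFb, TGFb+DHA, Snail and Snail+DHA, 4.49-fold lower with DHA in TGF-β cells, and both of its measured probes were lower (-2.17 and -1.14). FOXO1 read 8.91 and 7.32 in TGF-β cells and 10.28 and 8.58 in Snail cells. BCL6, a repressor that FOXO factors induce, read 9.51 and 7.92, and the other 3 genes of the class lay below 0 within 2-fold. In the PI3K, AKT and FOXO list as a whole 6 of 33 measured genes were at least 2-fold lower and none higher, with a median of -0.34. That was 18.2%, beside 3.61% lower over all genes. INPP5D, a lipid phosphatase that opposes PI3K, read 10.13 and 8.85, and SGK1, a kinase related to AKT, 11.35 and 10.18 with 4 probes between -1.17 and -0.27. In the Vector pair FOXO3, FOXO1 and BCL6 differed by 0.09, 0.14 and 0.28.

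The inhibitors of cyclin-dependent kinases lay mostly below 0 and the genes of DNA replication mostly above it. CDKN1C (p57) was above background on TGFb only and at least 2.95-fold lower with DHA, and CDKN1A (p21) read 13.97 and 13.42. The 2 measured probes of CDKN1A differed in sign, at -0.56 and 0.26. CDKN2B (p15), which TGF-β induces in many epithelial cells, read 9.85 and 8.73, with 3 probes between -1.13 and 0.03. On Vector it read 10.60, so on these arrays it was not higher with TGF-β. Of 9 measured inhibitors 7 lay below 0, with a median of -0.41. CDC25A, the phosphatase that starts S phase, read 7.34 and 8.79, and CCND1 (cyclin D1) 10.74 and 11.36. Cyclins and kinases of G1 had a median of 0.40 over 8 genes and the E2F genes of 0.58 over 7.

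Of 31 measured replication genes, 27 lay above 0, 7 were higher by 2-fold or more and none lower, with a median of 0.72. Over all genes 2.04% were at least 2-fold higher. MCM10, which helps to open the replication fork, read 7.70, 7.39, 7.29, 9.15, 7.36 and 8.37 on Vector, DHA, TGFb, TGFb+DHA, Snail and Snail+DHA, highest on TGFb+DHA. CDC45 and GINS2, parts of the replicative helicase, differed by 1.61 and 1.56, MCM6 of the same helicase by 1.43, FEN1, a nuclease of lagging strands, by 1.62 and PCNA, the sliding clamp, by 1.21. RRM2, a subunit of ribonucleotide reductase, was above background on TGFb+DHA only and at least 2.85-fold higher. The 39 mitosis genes did not follow, with a median of -0.05, 1 at least 2-fold higher (MAD2L1 of the spindle checkpoint, by 1.61) and 1 lower (CDC25B, which starts mitosis, at 10.48 and 9.27). MKI67, a marker of cycling cells, read 6.98 and 6.76. Within the replication and mitosis list, the 14 genes with the E2F motif had a median of 0.63 and the 46 without it 0.12. Most genes with the motif were replication genes, such as MCM3, MCM6 and PCNA. Replication genes had a median of 0.72 and mitosis genes of -0.05, so motif and role were not separated here.

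In the Snail pair the replication genes had a median of 0.35 with 4 at least 2-fold higher, and the mitosis genes of 0.18. In the Vector pair the replication genes had a median of -0.26, and 20 of 39 mitosis genes were at least 2-fold lower. The whole list of replication and mitosis held 8 genes at least 2-fold higher and 1 lower with DHA in TGF-β cells, and none higher and 21 lower in Vector cells. These were 12.9% and 30.4% of the measured list. Over all genes, 5.64% were at 2-fold or more in TGF-β cells and 1.31% were lower in Vector cells.

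**Figure D4:**
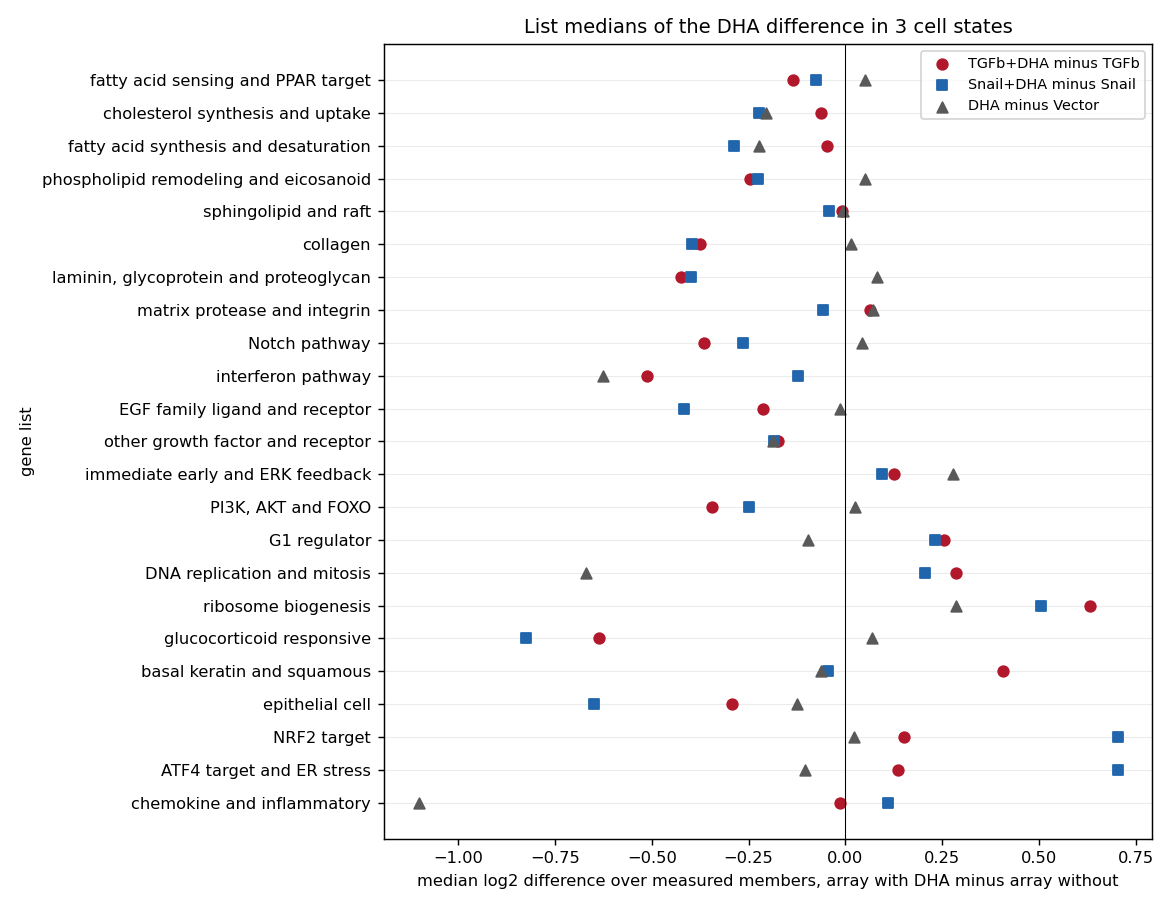
Median log2 difference over the measured members of each list (x axis) in TGF-β cells (red circles), Snail cells (blue squares) and Vector cells (gray triangles), with the lists on the y axis and 1 array per condition behind each value. The interferon list is below 0 in TGF-β (-0.51) and Vector cells (-0.63) and nearer to 0 in Snail cells (-0.12), while the replication and mitosis list is above 0 in TGF-β (0.29) and Snail cells (0.21) and at -0.67 in Vector cells.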

How the data were processed

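Total RNA from HMLE cells under 6 conditions was hybridized to Illumina HumanHT-12 v4 BeadChips, 1 array per condition. The deposited normalized table holds log2 values of 47323 probes, which the authors made with the IlluminaExpressionFileCreator module of GenePattern and quantile normalization between arrays. The labels and methods do not name the base of the logarithm, which was taken from the range of the values. The authors also deposited a table of non-normalized intensity values, of which 1431 to 1805 per array lie above 65535, the top of a 16-bit scanner. Its natural logarithm was therefore read as a log2 signal, and the order of the probes equals that of the normalized table on each array. Whether the module subtracted background is not stated, and no detection p-values were used here.

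A probe was counted as above background at an estimated detection p under 0.05, with the mode of the dim probes of each array as background and the deviations below that mode as its spread. Probes were named by the platform's gene table (30113 with 1 symbol, 8 with several, 17202 unnamed here), with symbols updated through RefSeq for 20019 of 20046 genes. The probe of highest mean over the 6 arrays stood for its gene. A gene above background on 1 array of a pair only is given as "at least N-fold", the brighter value over the higher of the dim value and the lowest value above background on that array. Differences were taken between single arrays, with no test. Genes were grouped in 30 lists, and the members and lists were chosen with earlier results of these data known, 2 of them (ribosome biogenesis, glucocorticoid responsive) after these values were seen. The text names anchor genes of each theme, up to 5 members of a list in each direction among those at 2-fold or more (3 for marker and stress lists) and the 10 largest differences in each direction, and other members that it names were chosen after their values were seen. The counting was tested on simulated data. Alternatives used normexp with an offset of 50 in limma 3.58.1 under R 4.3.3, other scalings, filters, probes and a 1.5-fold threshold. The other steps used Python 3.11.15 with pandas 2.3.3, numpy 2.4.6, scipy 1.17.1 and matplotlib 3.10.9.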

Additional observations from a re-analysis of the deposited data

Results flagged for a closer look

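For 11 of the 117 named genes at least 2-fold different in TGF-β cells, another pair of arrays gave a difference of at least 2-fold in the opposite direction. Over all genes, 2 of the 247 higher genes were at least 2-fold lower in the Snail pair and 10 in the Vector pair. Of the 437 lower genes, 1 and 9 were at least 2-fold higher there. With 1 array per condition none of these differences between pairs was tested. Against Vector cells, the inflammatory genes CXCL8 (1.31 in TGF-β cells, -3.01 in Vector cells), CXCL1 (1.20 and -2.91) and LCN2 (1.40 and -1.61) were higher with DHA in TGF-β cells and lower in Vector cells. The urokinase receptor PLAUR (1.24 and -1.28) and the retinaldehyde dehydrogenase ALDH1A3 (1.05 and -1.72) had the same pattern. On the TGFb array these 5 genes read lower than on the Vector array, for example CXCL8 at 6.65 and 9.53, CXCL1 at 7.44 and 9.90, LCN2 at 6.97 and 9.01 and ALDH1A3 at 7.41 and 10.15. The chemokine CXCL14 (-1.95 in TGF-β cells, 1.55 in Vector cells), the proteoglycan BGN (at least 2.16-fold lower in TGF-β cells, where TGFb+DHA was not above background, and 1.03 in Vector cells) and the fringe enzyme LFNG (-1.05 and 1.03) were lower with DHA in TGF-β cells and higher in Vector cells. Against Snail cells, THBS1 (1.26 in TGF-β cells, -1.81 in Snail cells) and the cadherin CDH11 (1.12 and -1.03) were higher with DHA in TGF-β cells, and the aldo-keto reductase AKR1B10 (-1.08 and 1.38) was lower. CXCL8 and CXCL1 were higher with DHA in Snail cells too, by 1.60 and 1.01. In TGF-β cells ALDH1A3 and CDH11 did not reach 2-fold under common-median scaling, nor CXCL8, PLAUR and LFNG with the mean of probes.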

How the results depend on the processing

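The counts of genes at least 2-fold higher and lower, 247 and 437, became 126 and 804 under common-median scaling, 677 and 1095 with the deposited intensities taken as linear, and 975 and 1437 at 1.5-fold. Under the other settings they stayed within 1.5 times, at 254 and 443 with normexp, 310 and 390 when scaled to the median of probes above background on all 6 arrays (chosen after seeing the data), 247 and 437 with no filter or at a detection p under 0.01, 240 and 395 above background on both arrays, 299 and 453 with the probe of highest variance and 213 and 343 with the mean of a gene's probes. The share of higher genes among those at 2-fold was 36.1%, 13.5% under common-median scaling and 44.3% under the added scaling. Of the 117 named genes at 2-fold, 105 kept their direction and 2-fold size under common-median scaling, 111 under the added scaling, 116 with normexp and 89 with the mean of probes. The collagen enzyme P4HA2 turned to 0.049 with the probe of highest variance. The luminal list median moved from -0.09 to 0.52 when genes had to be above background on both arrays, which leaves fewer genes. Scaling also turned the sign of list medians close to 0, as for NRF2 targets (0.15 to -0.02) and hypoxia and glycolysis (0.19 to -0.01) under common-median scaling. No paired analysis was possible because each condition has 1 array, which leaves no spread for the TGF-β pair by itself, and a DHA effect common to the 3 pairs was not fitted. Dim genes are limited by signal over background, and 7 of the higher and 42 of the lower genes were above background on 1 array only. Of genes at 2-fold with several measured probes, 3 of 92 higher and 22 of 133 lower had a probe of the opposite sign.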

Other observations

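Among growth genes not yet described, those of ribosome biogenesis lay mostly above 0 with DHA in TGF-β cells. Of 68 measured, 19 were at least 2-fold higher and none lower, 64 lay above 0, and the median was 0.63, 0.46 under common-median scaling with 11 higher. The 19 were 27.9% of the list, beside 2.04% higher over all genes. RRS1 and LYAR, which act in assembly of the large subunit and in the nucleolus, read 7.75 and 9.44 and 9.26 and 10.89 on TGFb and TGFb+DHA, and BRIX1, WDR12 and MRTO4, assembly factors of the large subunit, differed by 1.34, 1.37 and 1.40. The medians were 0.51 in Snail and 0.29 in Vector cells. Genes known to respond to glucocorticoids lay on the other side, with 11 of 29 measured at least 2-fold lower and 1 higher (ANGPTL4) and a median of -0.64. In either direction this was 41.4%, beside 5.64% over all genes. TSC22D3, which mediates glucocorticoid effects, read 10.66, 10.34, 11.78, 9.28, 12.48 and 11.51 on Vector, DHA, TGFb, TGFb+DHA, Snail and Snail+DHA, with 4 probes between -2.49 and -0.28, and SERPINA3 read 10.01 and 8.12. The medians were -0.82 in Snail and 0.07 in Vector cells. Both lists were written after these values were seen, so they support nothing by themselves, and FOXO3, FOXO1, CDKN1C, DUSP1 and SGK1 stand in the glucocorticoid list as well as in the growth lists.

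The epithelial genes that were lower included parts of desmosomes. Of 31 measured genes of epithelial junctions and identity, 7 were at least 2-fold lower and none higher, with a median of -0.29. The 7 were 22.6% of the list, beside 3.61% lower over all genes. MUC1, a mucin of the cell surface, read 10.61, 8.41, 10.70, 7.51, 10.32 and 9.05 on Vector, DHA, TGFb, TGFb+DHA, Snail and Snail+DHA, lower with DHA in every pair. PKP1 and JUP, which link desmosomal cadherins to keratin, read 12.03 and 9.56 and 12.60 and 10.76, CDH1 read 11.52 and 10.53, and CD24 13.30 and 12.20 with a second probe at 0.24. CLDN1 read 9.43 and 9.17. Of 28 measured genes of the squamous program, 8 were at least 2-fold higher and 1 lower, SERPINB13 at 8.81 and 7.58. The 8 higher genes were all of the antimicrobial and cornified envelope kind, such as RNASE7 at 7.81 and 9.55 and PI3 at 9.20 and 11.17. The keratin KRT16, counted here with the basal genes, read 13.78 and 11.68. The list of basal keratin and squamous genes had a median of 0.41 in TGF-β cells, -0.04 in Snail cells and -0.06 in Vector cells. In TGF-β cells its 5 measured basal genes had a median of -0.53, with 4 below 0, and its 28 squamous genes of 0.50. In Snail and Vector cells the basal genes had medians of -1.11 and 0.50, and the squamous genes of 0.35 and -0.13. KRT5 read 14.32 on TGFb and 13.40 on TGFb+DHA, and KRT14 14.11 and 13.58.

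The other lists lay closer to 0 in TGF-β cells. Their counts stand beside 2.04% of all genes at least 2-fold higher and 3.61% lower in this pair. NRF2 targets had a median of 0.15, with 1 of 26 lower, and ATF4 targets of 0.14, with PSAT1 higher (1.06) and PHGDH lower (-1.14), both enzymes of serine synthesis. In Snail cells both lists had a median of 0.70, with 8 of 25 and 10 of 29 genes at least 2-fold higher, beside 1.29% over all genes. Chemokine and inflammatory genes had a median of -0.01 with 3 of 29 higher and 3 lower. In Vector cells their median was -1.10 with 18 of 32 lower, beside 1.31% lower over all genes. Hypoxia and glycolysis had a median of 0.19 with PFKFB3 higher (1.19), metallothioneins of 0.05 with MT1G higher (1.30), genes associated with breast stem cells of -0.06 with 1 higher and 1 lower of 17, mesenchymal and fibroblast genes of -0.25 with 1 higher and 1 lower of 14, luminal genes of -0.09 with 1 of 7 lower (AGR2, -1.23), and leukocyte and endothelial genes of 0.06 with 1 of 5 lower (CSF1R, 8.57 to 7.14). PFKFB3 and PSAT1 did not reach 2-fold under common-median scaling, nor PFKFB3 and AGR2 with the mean of probes. CD44, a marker of the mesenchymal stem-like state, read 12.44 and 12.40, with 3 measured probes between -0.61 and 0.71.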
